A study of Homo sapiens with 6 samples.

Results

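Transcription of 42 nuclear genes whose proteins import, fold, process and degrade mitochondrial proteins was followed in SH-SY5Y cells given the neurotoxin MPP+. The genes were a named list, chosen by function and with earlier results of these data known. Each of the 42 symbols matched 1 of the 67051 gene identifiers in the count tables. They fall into 9 roles: matrix chaperones, proteases, presequence processing, the outer membrane translocase, the small intermembrane space chaperones, the carrier translocase, the presequence translocase with its motor, outer membrane assembly, and oxidative import with inner membrane insertion.

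SH-SY5Y is a human neuroblastoma line of sympathetic origin, and MPP+ is a toxin of dopamine neurons that is taken up by monoamine carriers and blocks respiratory complex I. The groups were SH-SY5Y cells given 0.1 mM MPP+ for 24 h, SH-SY5Y cells given 0.1 mM MPP+ for 0.5 h, and untreated SH-SY5Y cells, with 2 libraries in each. Each library was made by PRO-seq, a nuclear run-on assay that sequences RNA at engaged polymerases, so a count stands for transcription in progress and not for the amount of mRNA or protein. SH-SY5Y is 1 cell line, and no other cell model was included.

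Most mitochondrial proteins are encoded in the nucleus and made in the cytosol. They pass the outer membrane through the TOM complex and then follow one of several routes: TIM23 and its Hsp70 motor for proteins with a presequence, TIM22 for carriers, the SAM complex for outer membrane barrels, and CHCHD4 for cysteine-rich proteins of the intermembrane space. In the matrix, presequences are removed by the MPP protease, chaperones fold the arriving chains, and LONP1 and CLPXP degrade misfolded ones. Transcription of HSPD1, HSPE1, HSPA9, LONP1 and CLPP is widely used as a reporter of the mitochondrial unfolded protein response.

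The assigned counts ranged between 5983066 and 11707612 per library. Of 12 markers of noradrenergic neuroblastoma, 11 had at least 10 counts in every library. The exception was TH, the rate-limiting enzyme of catecholamine synthesis, with 2 to 10 counts. The summed level of these markers was 3351 and 2638 CPM (counts scaled to library size) at 24 h, 3427 and 2901 CPM at 0.5 h, and 3552 and 3007 CPM in untreated cells, higher in replicate 1 of every group. The leukocyte markers PTPRC, CD3E and LYZ summed to 3.17 to 4.74 CPM. The 4 fibroblast markers summed to 29.7 to 47.7 CPM, the 3 endothelial ones to 21.4 to 27.0 CPM and the 3 epithelial ones to 157.6 to 200.8 CPM. The part of these marker levels in the values below was not tested.

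What could be counted differed between the 42 genes. Processed pseudogenes lying inside a protein-coding gene were nearly always at 0, whichever strand they were on: 1108 of 1109 on the strand of their host and 2018 of 2021 on the other strand, against 1768 of 5526 that overlapped no other gene. The counts therefore behaved as counts over gene bodies, without strand, in which sequence shared by several genes was left out. The value of a gene can then include transcription from either strand of its unshared gene body. By GENCODE 29 coordinates, 31 of the 42 genes overlapped another gene, 26 of them on the opposite strand. In 26 genes at least 90% of the gene body was unshared, and in 7 it was under 15%.

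**Figure D1:**
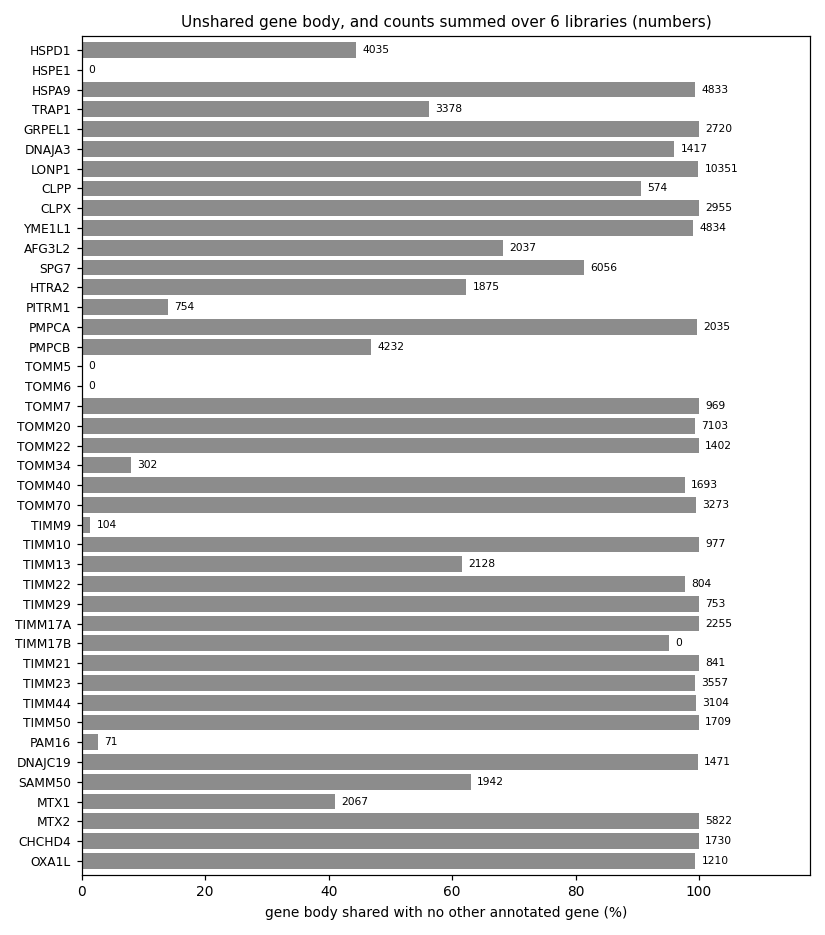
Percent of the gene body that overlaps no other gene in GENCODE 29 (horizontal axis) for each of the 42 genes, with the counts summed over 6 libraries written beside each bar. HSPE1, TOMM5 and TOMM6 have 0% unshared sequence and 0 counts, and TIMM17B has 0 counts with 95.1% unshared.

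HSPE1, the small partner of the HSPD1 chaperonin, was at 0 in all 6 libraries, and so were TOMM5 and TOMM6, small subunits of the TOM complex. None of these 3 genes had unshared sequence, so a count of 0 says nothing about their transcription. TIMM17B, a TIM23 subunit, was also at 0 in all 6 libraries although 95.1% of its gene body was unshared in GENCODE 29. The annotation release used for counting is not given in the sources used here, so overlaps in it may differ. The limit that a count of 0 allows, 3 counts, corresponds to 0.256 to 0.501 CPM across the libraries. The other 38 genes had counts in every library, between 5 and 2352, with a median of 320, and all 38 passed the filter on low counts. PAM16 and TIMM9 rest on 2.7% and 1.4% of their gene bodies, TOMM34 on 7.9% and PITRM1 on 13.9%, and their values describe those stretches. MTX1 rests on 41.0%, HSPD1 on 44.5% and PMPCB on 46.9%. The part of HSPD1 shared with HSPE1 holds the first bases after the RefSeq start of HSPD1, so its value leaves them out. Processed pseudogenes hold near copies of several of these genes: the tables list 18 for HSPD1, 6 of them with counts, the highest with 42 counts over all libraries, 26 for HSPE1 and 9 for DNAJC19. The only copy listed for MTX1 had 494 counts over all libraries, the most of any copy of these genes, where MTX1 itself had 2067, and the only copy listed for HSPA9 had 104, where HSPA9 had 4833. How reads were divided between such copies is not given in the sources used here, so the values of these genes are uncertain to that extent.

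HSPD1 and HSPE1 start back to back on chromosome 2, HSPD1 on the minus strand at 197500274 and HSPE1 on the plus strand at 197500379 (RefSeq, GRCh38.p14). The stretch between the starts is shown because it is the shared control region of the best known reporter pair, of which only HSPD1 could be counted. It is chr2:197500275-197500378, 104 bases written on the minus strand, with a GC content of 74%. Capitals mark a CACGTG E-box and a match to GCGCANGCG, the core bound by the respiratory gene regulator NRF1.
HSPD1–HSPE1 interval: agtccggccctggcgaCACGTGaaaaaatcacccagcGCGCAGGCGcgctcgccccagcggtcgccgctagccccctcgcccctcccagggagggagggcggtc

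The 250 bases before the RefSeq start are shown for 3 further genes: TIMM44, which had the smallest p of the list at 24 h, DNAJC19, which had the highest fold change at 24 h, and TIMM21, which had the highest fold change at 0.5 h. They are chr19:7943667-7943916 on the minus strand for TIMM44, chr3:180989775-180990024 on the minus strand for DNAJC19, and chr18:74148273-74148522 on the plus strand for TIMM21. Capitals mark CCAAT, and DNAJC19 had no match to any of the motifs searched.
TIMM44: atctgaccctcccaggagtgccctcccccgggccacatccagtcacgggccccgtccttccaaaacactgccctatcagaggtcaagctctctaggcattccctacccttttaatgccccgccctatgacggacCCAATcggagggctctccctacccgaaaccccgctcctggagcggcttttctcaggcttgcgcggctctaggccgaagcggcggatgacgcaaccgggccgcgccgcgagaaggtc
DNAJC19: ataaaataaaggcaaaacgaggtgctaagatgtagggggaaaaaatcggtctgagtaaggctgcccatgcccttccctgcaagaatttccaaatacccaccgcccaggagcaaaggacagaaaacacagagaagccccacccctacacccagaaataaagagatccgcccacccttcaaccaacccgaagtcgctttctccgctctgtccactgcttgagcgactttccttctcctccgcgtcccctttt
TIMM21: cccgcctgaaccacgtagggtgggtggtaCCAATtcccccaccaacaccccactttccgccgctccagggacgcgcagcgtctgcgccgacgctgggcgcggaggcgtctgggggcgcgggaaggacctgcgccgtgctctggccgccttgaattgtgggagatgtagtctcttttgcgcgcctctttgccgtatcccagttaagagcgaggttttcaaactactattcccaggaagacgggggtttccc

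RefSeq promoters were found for 38 of the 42 genes, and 7 motifs were searched on both strands in the 250 bases before the start. GCGCANGCG was present in 39.5% of the 38 promoters and in 7.02% of 27305 gene promoters. CCGGAAG, the core of the ETS family to which the respiratory regulator GABPA belongs, was present in 26.3% and 8.82%. CACGTG was present in 13.2% and 6.49%, in HSPA9, HSPD1, HSPE1, LONP1 and TOMM20. HSPD1 and HSPE1 enter the shares for CACGTG and for GCGCANGCG as 2 promoters, although their matches lie in the same interval between the starts. CCAAT was present in 34.2% and 33%. The other 3 motifs are tied to stress responses. TTCNNGAA, the heat shock element core, was present in 5.26% of the promoters of the list, TIMM10 and TOMM70, against 6.72% of all. TGATGNAA, an ATF4 response core, was present in 5.26%, PMPCB and TIMM22, against 3.19% of all. TGACGTCA, the CREB and ATF site, was present in 2.63%, TRAP1, against 1.77% of all. The median GC content of the 250 bases was 64.6% in the list and 58% over all, so motifs rich in G and C meet a different base composition in the list. These are matches of letters, given as a description without a test.

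The first comparison asks how transcription of these genes stood 0.5 h after MPP+ was added. None of the 38 genes passed the test at 0.5 h in the edgeR quasi-likelihood fit by group, made without replicate number as a term, and the adjusted p of every one of them was 1. The DESeq2 Wald test called 0 of them too, with 0 at an unadjusted p under 0.05, where 139 of all 23133 genes were under it. In the edgeR fit, 0.0735% of all 23133 genes tested were called lower and 0 genes higher. At an unadjusted p under 0.05, 1 of the 38 genes was higher and 0 were lower, where 1.05% of all genes were higher and 1.41% lower. The median log2 fold change of the 38 genes was 0.04 at 0.5 h, against 0.01 over all genes tested, and the single values ran from -0.36 to 0.40. It was below 0 in 16 of the 38 genes and above 0 in 22, where 47.9% of all genes were below 0 and 52.1% above. In 28 of the 38 genes the 95% interval of the fold change lay within 1.5-fold in either direction, and in 37 it lay within 2-fold. Of all 23133 genes tested, 12038 and 18885 lay within these bounds. The median SE was 0.129 in the list and 0.193 over all genes.

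Among the reporters, HSPD1, the chaperonin subunit that encloses unfolded matrix proteins, had 81.9 and 84.5 CPM at 0.5 h, against 82.3 and 72.4 CPM in untreated cells. Its log2 fold change was 0.11 ± 0.10 (SE, n = 2 libraries per group), with an edgeR adjusted p of 1. HSPA9, the matrix Hsp70 that also drives the import motor, had 98.6 and 96.9 CPM at 0.5 h, against 99.5 and 89.6 CPM in untreated cells. For both genes an untreated library lay within or above the 0.5 h values. LONP1, the main protease of the matrix, had 207.1 and 210.8 CPM at 0.5 h, against 257.4 and 204.5 CPM in untreated cells, and the untreated libraries spanned the 0.5 h values. CLPP, the proteolytic core of CLPXP, had 10.7 and 11.2 CPM at 0.5 h, against 13.6 and 14.3 CPM in untreated cells. CLPP had a log2 fold change of -0.36 ± 0.21 with an edgeR adjusted p of 1, and both 0.5 h libraries were below both untreated ones. As these are bulk libraries, fewer polymerases per cell and fewer transcribing cells cannot be told apart. The values are also relative to the other genes of a library, so a change shared by most genes would not show in them.

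TIMM21 links TIM23 to the TOM complex. It had 19.4 and 19.1 CPM at 0.5 h, against 15.2 and 14.1 CPM in untreated cells, a log2 fold change of 0.40 ± 0.17 with an unadjusted p of 0.0411 and an edgeR adjusted p of 1. The 0.5 h libraries were both above the untreated ones. TIMM10, which escorts membrane proteins across the intermembrane space, had 23.3 and 20.9 CPM at 0.5 h, against 16.3 and 18.5 CPM in untreated cells, also without overlap. MTX1, a partner of the SAM complex, had 47.6 and 44.5 CPM at 0.5 h, against 42.4 and 37.9 CPM in untreated cells, again without overlap. Neither gene passed the test, with log2 fold changes of 0.34 ± 0.16 for TIMM10 and 0.20 ± 0.125 for MTX1.

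TOMM22, a receptor of the TOM complex, had 28.9 and 33.0 CPM at 0.5 h, against 22.7 and 28.7 CPM in untreated cells, and the groups lay next to each other. TOMM7, a small subunit of the TOM complex, had 18.2 and 21.7 CPM at 0.5 h, against 13.9 and 19.9 CPM in untreated cells, and the groups overlapped. TIMM22, the channel of the carrier translocase, had 16.9 and 17.6 CPM at 0.5 h, against 13.6 and 17.9 CPM in untreated cells. In TIMM22 an untreated library lay above both 0.5 h libraries. OXA1L, which inserts proteins into the inner membrane, had 24.9 and 31.2 CPM at 0.5 h, against 21.6 and 26.3 CPM in untreated cells, with overlap.

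TIMM44, the scaffold that holds the Hsp70 motor at the TIM23 channel, had 61.5 and 65.3 CPM at 0.5 h, against 69.9 and 70.4 CPM in untreated cells. PMPCA, a subunit of the presequence protease MPP, had 38.05 and 43.9 CPM at 0.5 h, against 47.4 and 43.5 CPM in untreated cells. DNAJA3, a matrix J protein that works with HSPA9, had 27.0 and 28.5 CPM at 0.5 h, against 30.8 and 27.8 CPM in untreated cells. Only TIMM44 of these 3 genes had both 0.5 h libraries below both untreated ones, with a log2 fold change of -0.15 ± 0.10 and an edgeR adjusted p of 1. Over the list, 4 genes were lower and 7 higher at 0.5 h without overlap, where 14.4% of all genes were lower and 12.9% higher in that way.

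The second comparison asks how the same genes stood after 24 h of MPP+. None of the 38 genes passed the test at 24 h in the edgeR fit by group, and the smallest adjusted p was 0.457. Over all genes tested, 0.0692% were called lower and 0 genes higher. At an unadjusted p under 0.05, 6 of the 38 genes (15.8%) were lower, namely TRAP1, LONP1, CLPP, PMPCA, TOMM40 and TIMM44, where 4.09% of all genes were lower. In the other direction 1 gene (2.63%), DNAJC19, was higher, where 4.01% of all genes were higher. The median SE of the edgeR fit was 0.133 in the list and 0.196 over all genes tested. A change of the same size therefore reaches a small p more readily in the list, which limits the comparison of these shares. The DESeq2 Wald test called 0 of the 38 genes too, and gave 2 lower and 0 higher at an unadjusted p under 0.05. Of all 23133 genes, 755 were under it in either direction with DESeq2. The median log2 fold change of the 38 genes was -0.07 at 24 h, against 0.00 over all genes tested, and the single values ran from -0.52 to 0.36. In 26 of the 38 genes the 95% interval lay within 1.5-fold in either direction, and in 34 within 2-fold. Of all 23133 genes tested, 10543 and 18001 lay within these bounds.

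**Figure D2:**
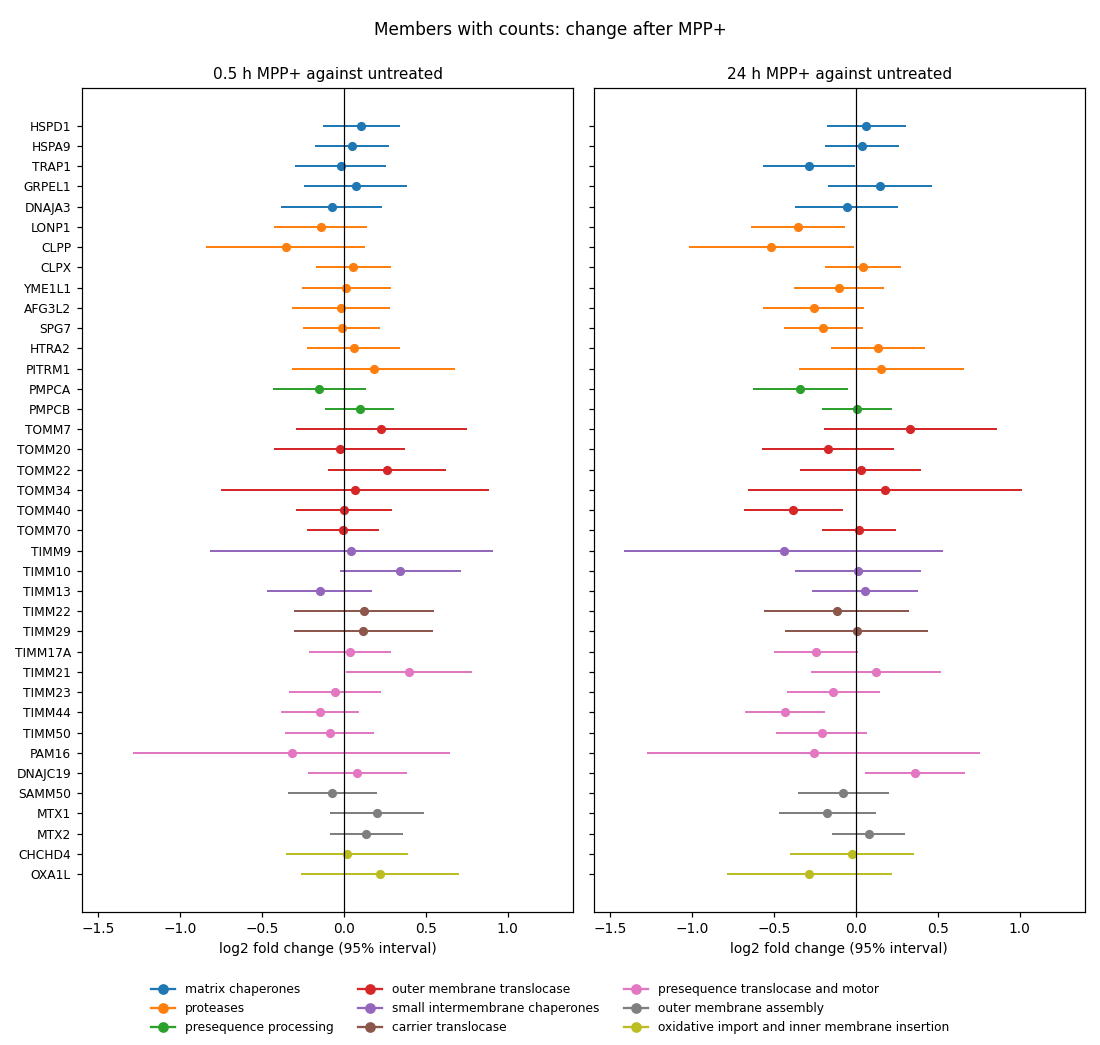
Log2 fold change against untreated cells (horizontal axis) of the 38 genes with counts, grouped by role, after 24 h and after 0.5 h of MPP+, with bars for the 95% interval of the edgeR fit. At 24 h the values run from -0.52 in CLPP to 0.36 in DNAJC19, and most intervals cross 0.

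TIMM44 had the smallest p of the list. It lies at chr19:7926718-7943920 (GENCODE 29, GRCh38) and had 49.2 and 55.0 CPM at 24 h, against 69.9 and 70.4 CPM in untreated cells. The mean was 52.1 ± 4.16 CPM at 24 h and 70.1 ± 0.35 CPM in untreated cells (SD, n = 2 each). Both 24 h libraries were below both untreated ones, and the log2 fold change was -0.43 ± 0.105, with an unadjusted p of 0.00241 and an edgeR adjusted p of 0.457.

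Other subunits of the presequence translocase differed in direction. TIMM17A, which gates the TIM23 channel, had 40.4 and 38.5 CPM at 24 h, against 48.2 and 45.2 CPM in untreated cells. TIMM50, the receptor that hands presequences to TIM23, had 31.9 and 31.0 CPM at 24 h, against 36.1 and 36.6 CPM in untreated cells. DNAJC19, a J protein of the inner membrane, had 35.7 and 32.3 CPM at 24 h, against 27.3 and 25.8 CPM in untreated cells. The 24 h libraries of TIMM17A and TIMM50 were below the untreated ones and those of DNAJC19 above them. DNAJC19 had a log2 fold change of 0.36 ± 0.13 with an edgeR adjusted p of 0.595, and TIMM17A one of -0.24 ± 0.11 with an edgeR adjusted p of 0.628. Over the 7 genes of this role that were tested the median log2 fold change was -0.21, with 5 below 0.

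In the TOM complex, TOMM40, which forms the channel of the outer membrane, had 29.1 and 26.5 CPM at 24 h, against 38.4 and 34.2 CPM in untreated cells. The groups did not overlap, and the log2 fold change was -0.38 ± 0.13 with an edgeR adjusted p of 0.574. TOMM7 had 18.0 and 25.2 CPM at 24 h, against 13.9 and 19.9 CPM in untreated cells, with overlap, and a log2 fold change of 0.33 ± 0.23, which ran from 0.08 without 24 h replicate 2 to 0.62 without untreated replicate 2. The receptors TOMM20, TOMM22 and TOMM70 had log2 fold changes between -0.17 and 0.03. The median over the 6 tested genes of the outer membrane translocase role was 0.02 at 24 h, with 2 below 0.

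Among the proteases, LONP1 had 181.1 and 180.0 CPM at 24 h, against 257.4 and 204.5 CPM in untreated cells. Its groups did not overlap, and the untreated libraries lay farther apart from each other than the lower of them lay from the 24 h values. LONP1 had a log2 fold change of -0.35 ± 0.125 with an edgeR adjusted p of 0.578, and of -0.18 without untreated replicate 1. CLPP had 8.06 and 11.7 CPM at 24 h, against 13.6 and 14.3 CPM in untreated cells, a log2 fold change of -0.52 ± 0.22 with an edgeR adjusted p of 0.605. Both 24 h libraries of CLPP were below the untreated ones, and the value was -0.255 without 24 h replicate 1 and -0.79 without 24 h replicate 2. CLPX, the ATPase that feeds CLPP, had a log2 fold change of 0.05 ± 0.10.

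AFG3L2 and SPG7 together form the m-AAA protease of the inner membrane. AFG3L2 had 32.5 and 40.1 CPM at 24 h, against 42.6 and 43.6 CPM in untreated cells. SPG7 had 108.6 and 111.9 CPM at 24 h, against 121.7 and 130.9 CPM in untreated cells. In both genes the groups did not overlap, with unadjusted p of 0.0886 and 0.0888 in the edgeR fit across all genes. HTRA2, a serine protease of the intermembrane space, had 38.6 and 40.1 CPM at 24 h, against 38.2 and 33.5 CPM in untreated cells, above without overlap and with a log2 fold change of 0.13 ± 0.125. The median of the 8 proteases was -0.15 at 24 h, with 5 below 0.

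PMPCA had 34.9 and 36.9 CPM at 24 h, against 47.4 and 43.5 CPM in untreated cells. The groups did not overlap, and the log2 fold change was -0.34 ± 0.13 with an edgeR adjusted p of 0.595. Its catalytic partner PMPCB had 81.4 and 83.8 CPM at 24 h, against 81.7 and 82.4 CPM in untreated cells, and a log2 fold change of 0.01 ± 0.09.

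Of the matrix chaperones, TRAP1, the mitochondrial Hsp90, had 64.6 and 52.0 CPM at 24 h, against 73.8 and 68.8 CPM in untreated cells. The groups did not overlap, and the log2 fold change was -0.285 ± 0.123 with an edgeR adjusted p of 0.607. Without 24 h replicate 2 it was -0.14, and without 24 h replicate 1 it was -0.46. HSPD1 had 82.3 and 79.2 CPM at 24 h, against 82.3 and 72.4 CPM in untreated cells, and the log2 fold change was 0.07 ± 0.10 with an edgeR adjusted p of 0.91. HSPA9 had 97.5 and 96.4 CPM at 24 h, against 99.5 and 89.6 CPM in untreated cells, and the log2 fold change was 0.04 ± 0.10 with an edgeR adjusted p of 0.954. In HSPD1 and HSPA9 the groups overlapped, and the upper end of the 95% interval was 0.30 in HSPD1 and 0.26 in HSPA9 on the log2 scale. GRPEL1, which releases nucleotide from HSPA9, had 61.5 and 52.0 CPM at 24 h, against 45.2 and 57.2 CPM in untreated cells, with overlap. Thus of the 5 reporter genes HSPE1 could not be counted, and LONP1 and CLPP had lower and HSPD1 and HSPA9 overlapping values at 24 h, none of them past the test in the fit by group. The calls of LONP1 and TIMM44 at 24 h depend on that fit and differ where the replicate number is a term.

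In the remaining roles the groups mostly overlapped. TIMM22 had 13.9 and 15.4 CPM at 24 h, against 13.6 and 17.9 CPM in untreated cells. TIMM9, a partner of TIMM10, had 2.01 and 1.14 CPM at 24 h, against 2.89 and 1.64 CPM in untreated cells, from few counts. OXA1L had 15.9 and 24.0 CPM at 24 h, against 21.6 and 26.3 CPM in untreated cells. MTX1 had 37.9 and 33.0 CPM at 24 h, against 42.4 and 37.9 CPM in untreated cells. Their log2 fold changes were -0.12 ± 0.19 for TIMM22, -0.44 ± 0.43 for TIMM9, -0.28 ± 0.22 for OXA1L and -0.17 ± 0.13 for MTX1, each with an edgeR adjusted p above the threshold. With single libraries left out, TIMM9 ran from -0.955 (without 24 h replicate 1) to -0.01 (without untreated replicate 1), and MTX1 from -0.28 (without 24 h replicate 1) to -0.08 (without 24 h replicate 2). SAMM50, the barrel of the SAM complex, was lower without overlap, with 38.3 and 38.1 CPM at 24 h, against 41.9 and 38.7 CPM in untreated cells, and the log2 fold change was -0.07 ± 0.12. MTX2, its metaxin partner, had 116.0 and 116.7 CPM at 24 h, against 107.8 and 112.3 CPM in untreated cells, with both 24 h libraries above.

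Over the list, 11 of the 38 genes (28.9%) had both 24 h libraries below both untreated ones and 3 (7.89%) had both above. Over all genes tested these shares were 18.5% and 18.8%. The median SE was smaller in the list, 0.133 against 0.196, so its groups separate more readily at the same change. The log2 fold change was below 0 in 21 of the 38 genes and above 0 in 17, against 49.6% and 50.4% of all genes. The summed level of the 38 genes was 1863 and 1816 CPM at 24 h, 1983 and 2005 CPM at 0.5 h, and 2047 and 1914 CPM in untreated cells, and the 24 h values were below the others.

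**Figure D3:**
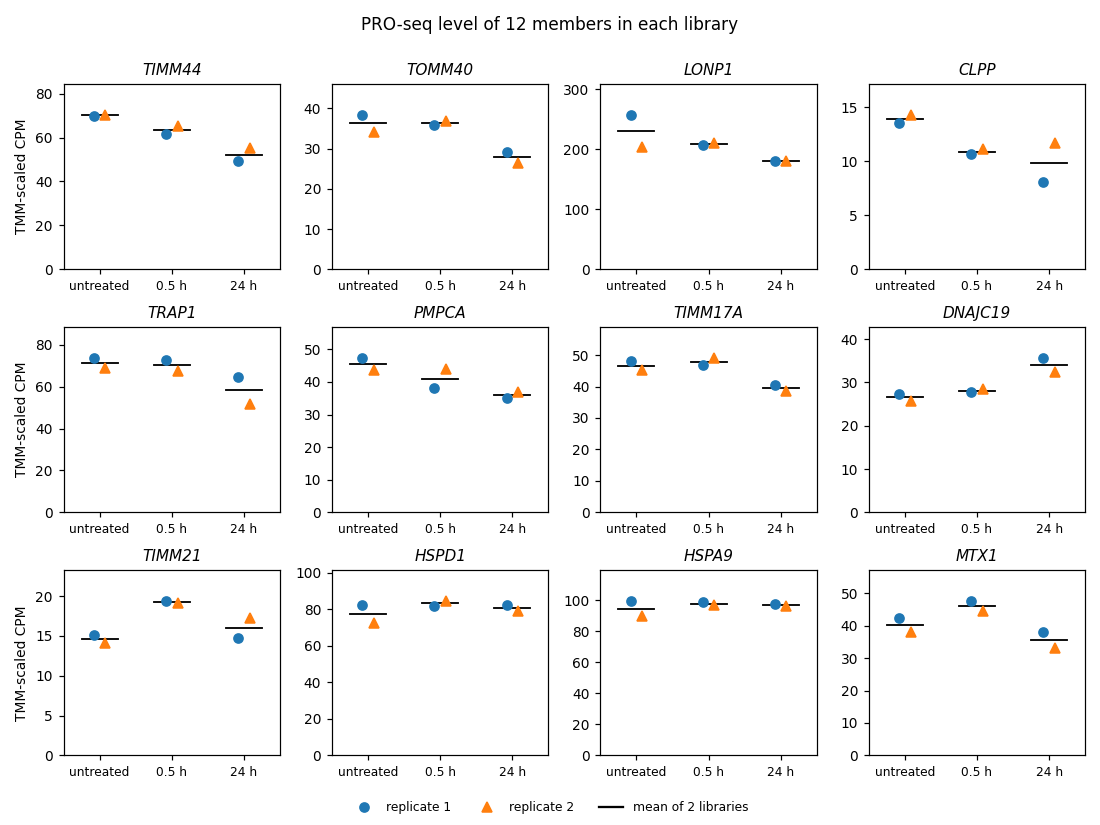
TMM-scaled CPM (vertical axis, starting at 0) of 12 genes in each library, in the order untreated, 0.5 h and 24 h, with 2 points per group. TIMM44 has 69.9 and 70.4 CPM in untreated cells, 61.5 and 65.3 CPM at 0.5 h and 49.2 and 55.0 CPM at 24 h, while HSPD1 stays between 72.4 and 84.5 CPM.

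The third comparison sets 24 h against 0.5 h of MPP+. None of the 38 genes passed the test between 24 h and 0.5 h in the edgeR fit by group, with a smallest adjusted p of 0.754, and 0% of all genes were called in either direction. At an unadjusted p under 0.05, 5 of the 38 genes (13.2%) were lower at 24 h and 0 higher, where 3.62% of all genes were lower and 2.8% higher. DESeq2 gave 0 genes of the list at an unadjusted p under 0.05, and 503 of all 23133 genes. Both 24 h libraries were below both 0.5 h libraries in 20 of the 38 genes (52.6%) and above them in 2 (5.26%), HTRA2 and DNAJC19, where the shares over all genes were 19.0% and 19.4%. The log2 fold change was below 0 in 29 of the 38 genes (76.3%), against 49.5% of all genes below 0 and 50.5% above, with a median of -0.11, against 0.00 over all genes. The median SE was 0.131 in the list and 0.193 over all genes, so the same change separates groups or reaches a small p more readily in the list. The genes of the list are not independent replicates and were chosen with earlier results of these data known. These shares are descriptions without a test.

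**Figure D4:**
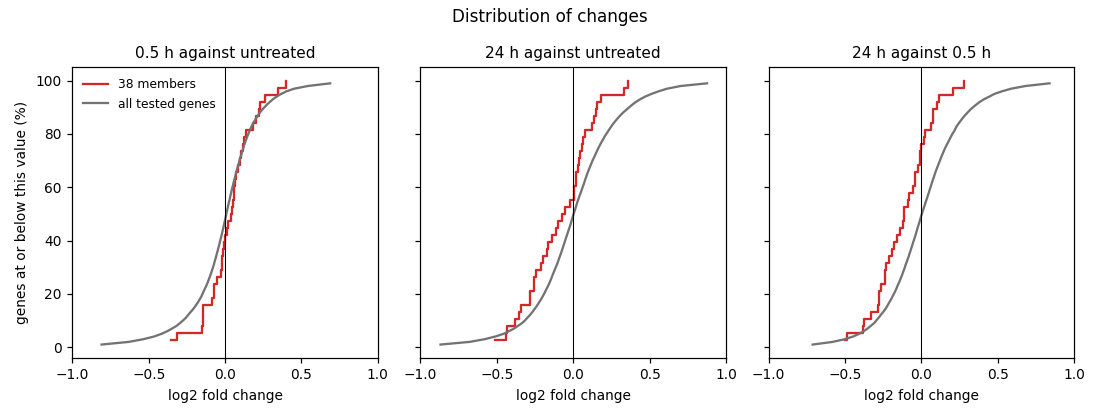
Cumulative share of genes (vertical axis) by log2 fold change (horizontal axis) for the 38 genes of the list and for all 23133 genes tested, 1 panel per comparison. For 24 h against 0.5 h the list lies to the left of all genes, with medians of -0.11 and 0.00.

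MTX1 had 37.9 and 33.0 CPM at 24 h, against 47.6 and 44.5 CPM at 0.5 h. The log2 fold change was -0.37 ± 0.13, with an edgeR adjusted p of 0.754. TOMM40 had 29.1 and 26.5 CPM at 24 h, against 35.8 and 36.8 CPM at 0.5 h, and its log2 fold change was -0.38 ± 0.13. TIMM44 had a log2 fold change of -0.285 ± 0.104 and TIMM17A one of -0.28 ± 0.11 between 24 h and 0.5 h. In all 4 genes the 24 h libraries were both below the 0.5 h libraries. These 4 genes have the smallest p of the list in this comparison.

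By role, the log2 fold change between 24 h and 0.5 h was below 0 in all 9 tested genes of 4 roles. These were presequence processing, the carrier translocase, outer membrane assembly, and the role of CHCHD4 and OXA1L, with 2 or 3 genes each. Their values ran from -0.50 ± 0.22 in OXA1L to -0.003 ± 0.12 in SAMM50, with CHCHD4 at -0.04 ± 0.16 and MTX2 at -0.06 ± 0.10. Over all genes 49.5% were below 0. Of the proteases 7 of 8 were below 0, of the presequence translocase and motor 5 of 7, and of the small intermembrane space chaperones 2 of 3. Of the matrix chaperones 3 of 5 were below 0, and of the outer membrane translocase role 3 of 6. The comparisons share libraries: 24 h against untreated and 24 h against 0.5 h use the same 24 h libraries, so their values are not independent.

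Levels can be compared between genes only per length. In untreated cells the level per kb of unshared gene body had a median of 2.83 CPM per kb over the 37 genes with counts and at least 500 unshared bases. The short gene TIMM13, a small chaperone of the intermembrane space, was highest with 33.7 and 28.7 CPM per kb. MTX1 followed with 20.2 and 18.0 CPM per kb and HTRA2 with 15.5 and 13.6 CPM per kb, and the libraries of these 3 genes did not overlap. LONP1, TOMM20, TIMM10 and TOMM22 came next, between 6.21 and 8.97 CPM per kb, and their libraries overlapped. HSPD1 had 6.13 and 5.39 CPM per kb, HSPA9 4.56 and 4.10 CPM per kb, TIMM44 4.08 and 4.11 CPM per kb and CLPP 2.01 and 2.12 CPM per kb. At the low end were TIMM21 with 1.26 and 1.17 CPM per kb, SAMM50 with 1.21 and 1.11 CPM per kb, and DNAJA3 with 1.03 and 0.935 CPM per kb. A short gene body weights the polymerases near the start more heavily, so this order is one of density over the gene body.

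A further 43 genes of the same pathway, not members of the list, were read beside it, and 35 of them were tested. TIMM10B, TIMM23B, OMA1, PARL, PDF, PHB1, MICOS13 and ATF5 were at 0 in all libraries. The unshared part of these genes was not worked out. Their counts of 0 therefore do not tell absent transcription from sequence that could not be counted. None of the 35 genes passed the test in any of the 3 comparisons in the edgeR fit by group. At an unadjusted p under 0.05 there were 0 at 0.5 h, 1 (DNAJC11, lower) at 24 h, and 3 between 24 h and 0.5 h, with GRPEL2 and PHB2 lower and CHCHD6 higher. Over all genes, 1.41% were lower and 1.05% higher at 0.5 h, and 4.09% and 4.01% at 24 h. Between 24 h and 0.5 h these shares were 3.62% and 2.8%. STOML2 and ATAD3A, which were among the 3 smallest p at 0.5 h, had log2 fold changes of 0.33 ± 0.18 and -0.195 ± 0.109 there. The 35 genes had a median log2 fold change of 0.08 at 0.5 h and 0.01 at 24 h against untreated cells. It was -0.07 for 24 h against 0.5 h. In these comparisons 8, 16 and 26 of the 35 genes were below 0, against 47.9%, 49.6% and 49.5% of all genes.

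The 35 genes included 13 of other import and assembly functions, 7 proteases and peptidases, 6 subunits of the MICOS complex that shapes cristae, 5 chaperones and cofactors, 2 membrane scaffolds of proteases, and ATF4 and DDIT3, transcription factors of the mitochondrial unfolded protein response. ATF4 and DDIT3 had log2 fold changes of 0.03 and 0.11 at 24 h and of 0.11 and 0.25 at 0.5 h. DNAJC11, a J protein of the MICOS assembly, had 108.5 and 108.9 CPM at 24 h, against 139.0 and 124.5 CPM in untreated cells, a log2 fold change of -0.28 ± 0.10 with an edgeR adjusted p of 0.594. GRPEL2, a second nucleotide exchange factor of HSPA9, had 27.5 and 27.0 CPM at 24 h, against 37.2 and 33.8 CPM at 0.5 h, and its log2 fold change was -0.38 ± 0.13 with an edgeR adjusted p of 0.754. PPIF, the cyclophilin of the matrix, had 75.6 and 71.4 CPM at 0.5 h, against 54.9 and 66.1 CPM in untreated cells, a log2 fold change of 0.28 ± 0.145 with an edgeR adjusted p of 1.

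The authors' deposited table for 24 h lists 24 genes and the authors' deposited table for 0.5 h lists 17 genes. Each of these tables holds 0 genes of the list.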

How the data were processed

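PRO-seq was measured in 6 libraries of SH-SY5Y cells, 2 in each of 3 groups. The deposited files hold raw counts per gene, without normalization, for each library, and 2 lists of differential genes, deposited by the authors with a p-value and adjusted p-value per gene, were used only to look up members. Per the submitters' processing notes, the build was hg38, and the tools named there are featureCounts 2.0.1, Bowtie2 2.4.2, cutadapt 1.16.5, DESeq2 2.11.40.6 and SAMtools 1.13. No source used here gives the annotation release, strand setting or overlap rule, and the overlap property described in the results was read from the counts with GENCODE 29 coordinates. Of the 67051 identifiers, 60437 were named from a gene name table, 257 from GENCODE 29, and 6357 had no name. Whether replicates were separate cultures is not in the labels, so the p-values cover the spread of these libraries alone, which may be technical. Chi-square divided by degrees of freedom between the libraries of each group was 4.13 at 24 h, 9.06 at 0.5 h and 5.62 in untreated cells, above counting error.

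Counts were filtered with filterByExpr by group, scaled by TMM and fitted on all 6 libraries with edgeR 4.0.16 in R 4.3.3, with a coefficient for each group (residual degrees of freedom 3, common biological coefficient of variation 0.113). The two-sided quasi-likelihood F test was adjusted by Benjamini-Hochberg over 23133 genes, with a threshold of 0.05. SE is the log2 fold change divided by the square root of F, CPM values are TMM-scaled, and intervals are at 95%. No spike-in entered the scaling, so CPM values and fold changes are relative and do not measure a global change in transcription. A count of 0 allows up to 3 counts, which covers counting error only, and PCR copies are counted like molecules. The steps were tested on simulated data, drawn with the dispersions of this fit and without a difference between replicate numbers. Promoter sequences are RefSeq, GRCh38.p14. The alternatives were other normalizations (RLE and upper quartile), no filter and a stricter filter on counts, DESeq2 1.42.0, the fit of only the groups compared, a replicate block, and each library left out.

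The members and the lists of other genes and markers were chosen with earlier results of these data known. Genes given in full were the 5 reporter genes, in each comparison with untreated cells the 2 genes with the smallest p per role (1 in roles of 2 or 3 genes), the 4 smallest for 24 h against 0.5 h, and up to 3 other pathway genes per comparison; PHB2, CHCHD6, STOML2 and ATAD3A, which this takes too, are given without library values. Other named members (TIMM50, AFG3L2, SPG7, HTRA2, PMPCB, CLPX, SAMM50, MTX2 and those named by level), and ATF4 and DDIT3 of the other pathway genes, were chosen after their values were seen. Of the markers searched, 1 is not reported here.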

Additional observations from a re-analysis of the deposited data

How the results depend on the processing

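The replicate numbers of the labels do not say that libraries shared a culture or day, and with 2 pairs in each comparison the data do not settle whether the numbers pair the libraries. Same-numbered libraries deviated from their group means with correlations of 0.35 (0.5 h and untreated), 0.315 (24 h and untreated) and 0.338 (24 h and 0.5 h). With a replicate block, 2 genes of the list were called lower at 24 h where the fit by group called 0: TIMM44 with a log2 fold change of -0.43 and an edgeR adjusted p of 0.0123, and LONP1 with -0.35 and 0.0178. Over the other alternatives the adjusted p ran between 0.12 and 1 for TIMM44 and between 0.229 and 1 for LONP1. With the block 0 genes of the list were called at 0.5 h and between 24 h and 0.5 h. Over all genes the block called 15 higher and 42 lower at 0.5 h, 301 and 384 at 24 h, and 116 and 296 between 24 h and 0.5 h. Without a filter 20 higher and 46 lower were called at 0.5 h, 130 and 115 at 24 h, and 29 and 44 between 24 h and 0.5 h, and DESeq2 called 13 and 18 at 24 h. No gene of the list was called under these or any other alternative, the block at 24 h excepted. With upper-quartile normalization, 25 genes of the list were below 0 and 13 above for 24 h against 0.5 h. The median of the list was then -0.0807, against 0.0367 over all genes, and 16 genes were lower and 4 higher without overlap.

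Leaving out each library in turn, the median log2 fold change of the list ran from -0.0136 to 0.0414 at 0.5 h (lowest without untreated replicate 2), from -0.101 to -0.0308 at 24 h and from -0.148 to -0.1 for 24 h against 0.5 h. The number of genes whose groups do not overlap ran from 11 to 32, from 14 to 32 and from 21 to 33, which the loss of a library brings about by construction. Of single genes, none of them called in the fit by group, some turned direction. At 0.5 h they ran from -0.308 to 0.0309 for LONP1, from -0.00156 to 0.515 for TOMM7 and from -0.0581 to 0.337 for TIMM22 (each turned without untreated replicate 1), and from -0.0321 to 0.126 for HSPA9 (turned without untreated replicate 2). At 24 h they ran from -0.0103 to 0.322 for GRPEL1 (turned without untreated replicate 1), from -0.3 to 0.0945 for TIMM22, from -0.0362 to 0.158 for HSPD1 and from -0.0469 to 0.112 for HSPA9 (each turned without untreated replicate 2), and from -0.598 to 0.000457 for OXA1L (turned without 24 h replicate 1). The cause was not tested. A left-out library leaves a group of 1, which is assumed to vary like the others. Genes with few counts, PAM16 and TIMM9 among them, limit what the depth can show.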
